A study of Mus musculus with 10 samples.

Results

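The genes Ccl2, Ccl7, Ccl11, Ccl12 and Ccl8 form a run of CC chemokine genes on mouse chromosome 11. These 5 genes were taken by name, and their symbols were matched through GENCODE to the Ensembl identifiers of a deposited count table of 22731 genes. Ccl2, Ccl7, Ccl11 and Ccl8 are described here, and all 4 passed the filter on low counts. Ccl12 was not analysed here. The study sequenced RNA in bulk from mouse fibroblasts, labelled C57B6 in every group, sorted on podoplanin and PDGFRα, with CD45+, Epcam+ and CD31+ cells gated out. They were cultured with group 2 innate lymphoid cells (ILC2s), lymphocytes of tissues that secrete IL-5 and IL-13 and were sorted here as KLRG1+. There were 3 libraries of fibroblasts cocultured with wild-type ILC2s (WT coculture), 3 of fibroblasts cocultured with IL-13 knockout ILC2s (IL13KO coculture) and 4 of fibroblasts grown alone (monoculture). No label gives the fibroblasts a knockout, and they were sorted again before RNA was taken. That second sort is written in the design text as CD45+, the reverse of the first. The labels give neither the time in culture nor the animals behind a library, so p-values measure the spread between these libraries, which may be technical.

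CC chemokines are small secreted proteins that attract white blood cells through G protein-coupled receptors. CCL11, or eotaxin, acts on CCR3 and recruits eosinophils. CCL2, CCL7 and CCL12 belong to the monocyte chemoattractant proteins (MCPs) and act on CCR2 of monocytes, CCL7 also on other receptors, and mouse CCL8 is a ligand of CCR8. In fibroblasts Ccl2 and Ccl7 are known as targets of inflammatory NF-κB signalling, and Ccl11 as a target of STAT6, the transcription factor that IL-4 and IL-13 activate.

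On GRCm38 the genes lie on the plus strand between 82035571 and 82116799 of chromosome 11, within 81.2 kb. Ccl2 (ENSMUSG00000035385) runs from 82035571 to 82037453, and Ccl7 (ENSMUSG00000035373) from 82045712 to 82047525, starting 8.26 kb after Ccl2 ends. Ccl11 (ENSMUSG00000020676) follows after 10.3 kb, from 82057823 to 82062955. Ccl8 (ENSMUSG00000009185) lies at the far end, from 82115185 to 82116799, beyond Ccl12 (ENSMUSG00000035352). The coding sequences show the genes to be relatives that are far from identical. The stretch around the paired cysteine codons that give CC chemokines their name, shown in capitals, differs at many bases between neighbours in the GENCODE transcripts.
Ccl2: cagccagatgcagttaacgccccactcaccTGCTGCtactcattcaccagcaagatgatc
Ccl7: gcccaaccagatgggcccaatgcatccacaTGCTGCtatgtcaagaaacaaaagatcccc
Ccl11: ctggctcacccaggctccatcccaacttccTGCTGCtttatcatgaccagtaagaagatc
Ccl12: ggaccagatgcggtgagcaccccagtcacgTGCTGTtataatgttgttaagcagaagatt
Ccl8: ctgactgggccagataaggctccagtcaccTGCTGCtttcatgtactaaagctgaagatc
Over the aligned coding sequence, identity ran from 64.2% between Ccl7 and Ccl8 to 70.5% between Ccl12 and Ccl8, and it was 68.4% between Ccl2 and Ccl11. None of the 50-base words (the read length) of the longest transcript of each of the 5 genes occurred in an annotated transcript of another gene. No exon base of the 5 genes overlapped an exon of another annotated gene, although Gm17268, on the minus strand from 82028224 to 82038562, spans the whole of Ccl2.

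Libraries held 18801744 to 22087459 counts in the WT cocultures, 17277432 to 17661229 in the IL13KO cocultures and 10710410 to 14366199 in the monocultures. The WT coculture libraries are named here by their column numbers, 1, 3 and 4. A count of 3, taken as the floor, was worth 0.135 to 0.162, 0.1701 to 0.1705 and 0.211 to 0.277 CPM in these groups, and such floors cover counting error only. CPM are counts relative to library size, with sizes scaled by TMM, which assumes that most genes do not change. Il13, the gene that the knockout ILC2s lack, had 30, 120 and 121 reads in WT cocultures 1, 3 and 4, and was at 0 reads in all other libraries. Il5, another ILC2 cytokine gene, had 80, 265 and 371 reads with wild-type ILC2s, 30, 64 and 12 with IL13KO ILC2s and 0 alone. Fibroblast markers were abundant in every library, with Pdgfra at 633 ± 100.3 CPM with wild-type ILC2s, 747 ± 86.6 with IL13KO ILC2s and 372 ± 4.82 in the monocultures (SD, n = 3, 3 and 4). The CD45 gene Ptprc had few reads: 6, 3 and 9 with wild-type ILC2s, 0, 1 and 0 with IL13KO ILC2s, and 0 alone.

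All 4 measured chemokine genes were higher in the cocultures than in monoculture, and all 4 were higher with wild-type than with IL13KO ILC2s. Each gene therefore stood in the same order of groups, WT coculture above IL13KO coculture above monoculture, with no overlap between the libraries of any of these groups. The size of the steps differed from gene to gene. A gene was called where edgeR's quasi-likelihood test gave an adjusted p (Benjamini-Hochberg) below 0.05 among 16344 genes. For WT coculture against monoculture, 4 of 4 were called higher, where 62.5% of all genes tested were called, 32.8% higher and 29.7% lower. For IL13KO coculture against monoculture 4 of 4 were called higher, where 57.4% of all genes were called, 30.1% higher and 27.3% lower. For WT against IL13KO coculture 4 of 4 were called higher, where 23.3% of all genes were called, 11.6% higher and 11.7% lower. Of all genes, 32.2%, 30.9% and 24.2% had every library of the first group above every library of the second in these comparisons. How many genes hold the full order of the 3 groups without overlap was not counted. The median log2 fold change of the 4 genes was 2.58, 0.89 and 1.69 in these comparisons, against 0.015, 0.002 and -0.004 over all genes tested. The first 2 comparisons share the same monocultures. In both, most genes tested were called, so by this measure the assumption behind TMM that most genes do not change did not hold. The shares called higher and lower were close. In bulk RNA a change in the number of cells that express a gene and a change in RNA per cell cannot be told apart.

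**Figure D1:**
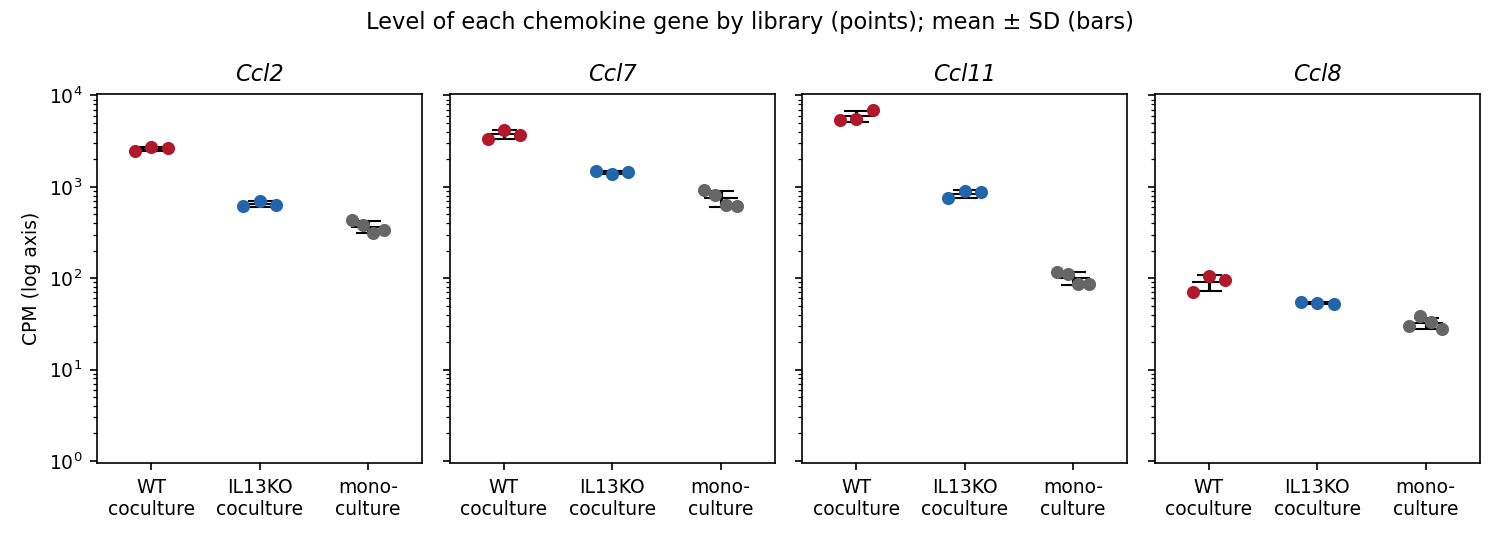
Level of Ccl2, Ccl7, Ccl11 and Ccl8 in CPM on a log axis, by library (points: 3 WT cocultures, 3 IL13KO cocultures, 4 monocultures), with the mean and SD of each group as bars. In every panel the WT cocultures lie highest and the monocultures lowest, and the widest spacing between groups is that of Ccl11.

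Ccl11, the eotaxin gene, moved most. It was at 5370, 5577 and 6866 CPM in WT cocultures 1, 3 and 4, at 752, 902 and 868 CPM in IL13KO cocultures 1 to 3, and at 116, 111, 86.8 and 86.6 CPM in monocultures 1 to 4. The lowest WT coculture library stood 5.95-fold above the highest IL13KO library, and the lowest IL13KO library 6.48-fold above the highest monoculture. Against monoculture the log2 fold change was 5.89 ± 0.15 (SE) with wild-type ILC2s (59.3-fold, edgeR adjusted p = 6.24e-11) and 3.07 ± 0.13 with IL13KO ILC2s (8.40-fold, edgeR adjusted p = 3.3e-08). The difference between the cocultures was 2.82 ± 0.15, or 7.06-fold (edgeR adjusted p = 2.41e-07). After each library's dependence on GC content and transcript length was taken out, these last 2 values were 3.65 for IL13KO coculture against monoculture and 2.73 between the cocultures. In the WT cocultures Ccl11 took first place in mean RPKM (CPM per kilobase of annotated exon, a scale on which genes can be compared) among 16315 genes, against place 37 in the IL13KO cocultures and place 949 in monoculture. First place rests on means and on annotated exon lengths. In the WT cocultures Ccl11 ran from 4963 to 6346 RPKM and Ccl7 from 4123 to 5235, and in CPM Col1a1 was higher than Ccl11, at 6756 ± 2183.

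Ccl2, the gene of the monocyte attractant MCP-1, came next in its difference between the cocultures. It was at 2455, 2736 and 2637 CPM in WT cocultures 1, 3 and 4, at 616.5, 707 and 636 CPM in the IL13KO cocultures, and at 428, 385, 310.4 and 338 CPM in monocultures 1 to 4. The WT libraries stood far above both other groups, and the IL13KO libraries cleared the highest monoculture by 1.44-fold. The log2 fold change between WT and IL13KO coculture was 2.0 ± 0.12 (edgeR adjusted p = 5.02e-07). It was 2.84 ± 0.11 for WT coculture against monoculture (edgeR adjusted p = 2.24e-09). For IL13KO coculture against monoculture it was 0.84 ± 0.11, or 1.79-fold (edgeR adjusted p = 3.72e-05). Of its log2 rise with wild-type ILC2s, Ccl2 thus showed the smaller part with IL13KO ILC2s.

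Ccl7, which encodes MCP-3 and lies between Ccl2 and Ccl11, was the most abundant of the 4 per length in monoculture. It was at 3302, 4193 and 3718 CPM in WT cocultures 1, 3 and 4, at 1486, 1364 and 1464 CPM in the IL13KO cocultures, and at 919, 820.4, 639.5 and 621 CPM in monocultures 1 to 4. The 3 IL13KO libraries lay close together, and the monocultures spread more widely (coefficient of variation 4.53% and 19.2%). The log2 fold change between WT and IL13KO coculture was 1.38 ± 0.15, or 2.60-fold (edgeR adjusted p = 3.11e-05). Against monoculture it was 2.32 ± 0.14 with wild-type ILC2s (edgeR adjusted p = 3.86e-08) and 0.94 ± 0.13 with IL13KO ILC2s (edgeR adjusted p = 7.86e-05). After removal of the dependence on GC content and transcript length in each library, the change with IL13KO ILC2s was 1.53, a fold 1.503 times as large.

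Ccl8, at the far end of the cluster, was the least abundant and changed least. It had 70.3, 105 and 94.4 CPM in WT cocultures 1, 3 and 4, 54.4, 54.0 and 52.5 CPM in the IL13KO cocultures and 29.9, 38.6, 33.3 and 27.9 CPM in monocultures 1 to 4. The groups did not overlap, but the lowest WT library was only 1.29-fold above the highest IL13KO library. The log2 fold change was 0.74 ± 0.15 for WT against IL13KO coculture (edgeR adjusted p = 0.00352). It was 1.47 ± 0.14 for WT coculture and 0.73 ± 0.14 for IL13KO coculture against monoculture (edgeR adjusted p = 2.18e-06 and 0.000873). Corrected for GC content and length in this way, the change of Ccl8 was 0.57 between the cocultures and 1.27 for IL13KO coculture against monoculture. Of the cluster, the RefSeq table of promoters (GRCm38.p6) holds Ccl8 and Ccl12, 2 of 5. The 250 bases before the start of Ccl8, chr11:82114935-82115184 on the plus strand, are shown because Ccl8 is the measured gene that the table holds.
Ccl8 upstream: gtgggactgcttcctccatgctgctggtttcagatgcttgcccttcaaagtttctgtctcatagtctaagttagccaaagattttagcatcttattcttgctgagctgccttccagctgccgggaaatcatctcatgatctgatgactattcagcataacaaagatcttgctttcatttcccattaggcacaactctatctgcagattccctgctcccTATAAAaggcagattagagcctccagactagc
The capitals mark a TATA box, TATAAA, that begins 32 bases before the start and that 13.6% of 32851 such windows hold on either strand. The window, read with the first 50 transcribed bases on both strands, holds no match to the STAT6 motif TTCNNNNGAA, the STAT motif TTCNNNGAA, the NF-κB consensus or the AP-1 motif TGANTCA. Those motifs were found in 6.95%, 8.30%, 8.46% and 7.81% of all windows.

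**Figure D2:**
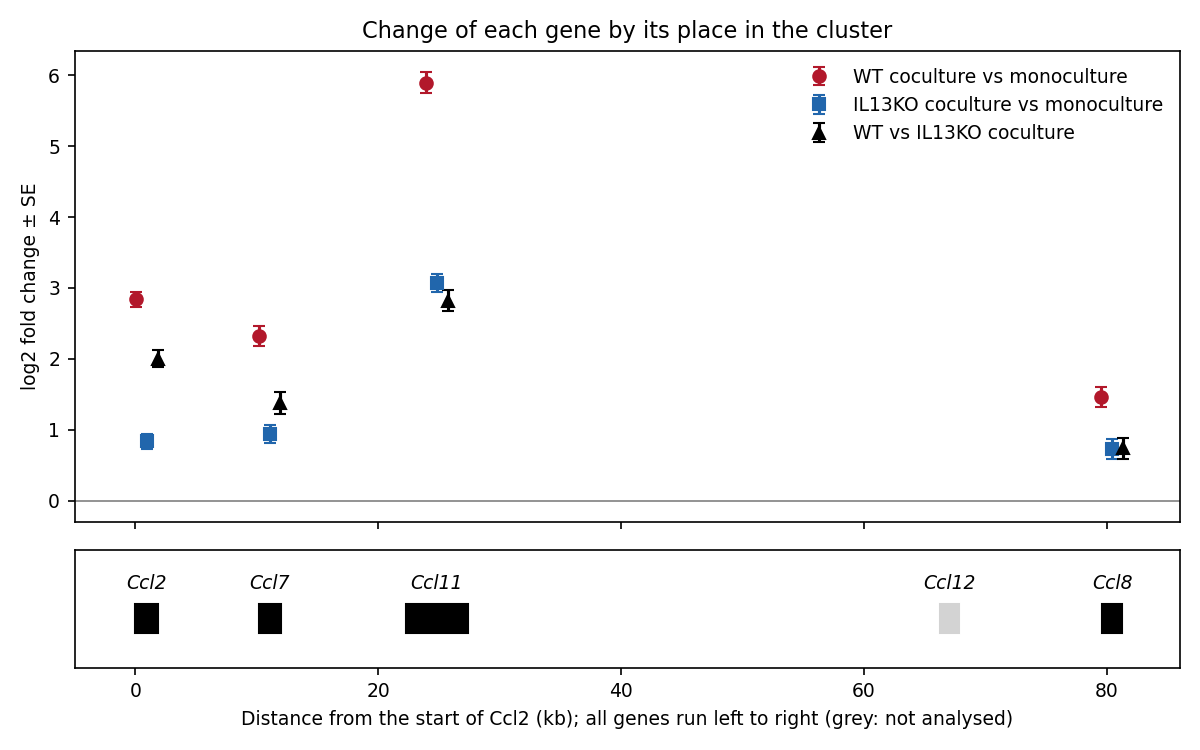
Log2 fold change ± SE of each gene (upper panel) against its distance from the start of Ccl2 in kb, with the gene models below (grey: not analysed). Circles are WT coculture against monoculture, squares IL13KO coculture against monoculture and triangles WT against IL13KO coculture; the triangles stand at 2.0, 1.38, 2.82 and 0.74 from Ccl2 to Ccl8.

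Read along the chromosome, the difference between WT and IL13KO coculture did not follow gene order. From Ccl2 through Ccl7 and Ccl11 to Ccl8 the log2 fold changes were 2.0, 1.38, 2.82 and 0.74, so Ccl7 was lower than both of its neighbours. Gene flanks gave little to compare. The next CC chemokine gene beyond Ccl8, Ccl1 on the opposite strand, had 3 reads in WT coculture 1 and 0 in each other library. Tmem132e, the next protein-coding gene in the table within 500 kb, had 0 to 3 reads in a library.

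How far neighbours parted was measured as the log2 ratio of 2 genes within a library, in which depth and scaling cancel. There were 6 pairs and 3 comparisons, hence 18 exact two-sided permutation tests. With 3 against 3 libraries the smallest possible p is 0.1, and with 3 against 4 it is 0.0571, so none could pass 0.05. Between WT and IL13KO coculture the libraries did not overlap for any of the 6 pairs (each exact permutation p = 0.1, 0.12 adjusted over the 18 tests). Of all pairs of tested genes, 49.2% did not overlap between these groups, 58.8% between WT coculture and monoculture and 53.8% between IL13KO coculture and monoculture. The 6 ratios are built from 4 genes and are not independent, so the size of the differences and not the count of pairs is described. The ratio of Ccl11 to Ccl2, per length, was 1.2, 1.1 and 1.45 with wild-type ILC2s, 0.36, 0.42 and 0.52 with IL13KO ILC2s and -1.81, -1.72, -1.76 and -1.89 in the monocultures on the log2 scale. That is 0.82 higher with wild-type than with IL13KO ILC2s, and 2.23 higher with IL13KO ILC2s than in monoculture. The ratio of Ccl11 to Ccl7 was 1.44 higher, and that of Ccl11 to Ccl8 2.09 higher, with wild-type than with IL13KO ILC2s.

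Among Ccl2, Ccl7 and Ccl8 the ratios with IL13KO ILC2s overlapped those of monoculture, which does not show that they were equal. The ratio of Ccl2 to Ccl7 averaged -1.65 ± 0.17 in the IL13KO cocultures and -1.54 ± 0.10 in the monocultures (SD, n = 3 and 4; exact permutation p = 0.286), and the libraries overlapped. The ratios of Ccl2 to Ccl8 and of Ccl7 to Ccl8 differed by 0.11 and 0.22 between the same groups, again with overlap (exact permutation p = 0.514 and 0.229). Between the cocultures these ratios did not overlap. The ratio of Ccl2 to Ccl7 averaged -1.02 ± 0.10 in the WT cocultures against -1.65 ± 0.17 in the IL13KO cocultures, a difference of 0.63. That of Ccl2 to Ccl8 averaged 3.72 ± 0.22 against 2.45 ± 0.10, a difference of 1.28, and that of Ccl7 to Ccl8 averaged 4.74 ± 0.14 against 4.09 ± 0.08, a difference of 0.65 (SD, n = 3 each). The ratios of Ccl11 to the other 3 genes did not overlap those of monoculture in either coculture, at 2.12 to 2.34 above the monoculture ratios with IL13KO ILC2s and 3.05 to 4.43 above them with wild-type ILC2s.

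**Figure D3:**
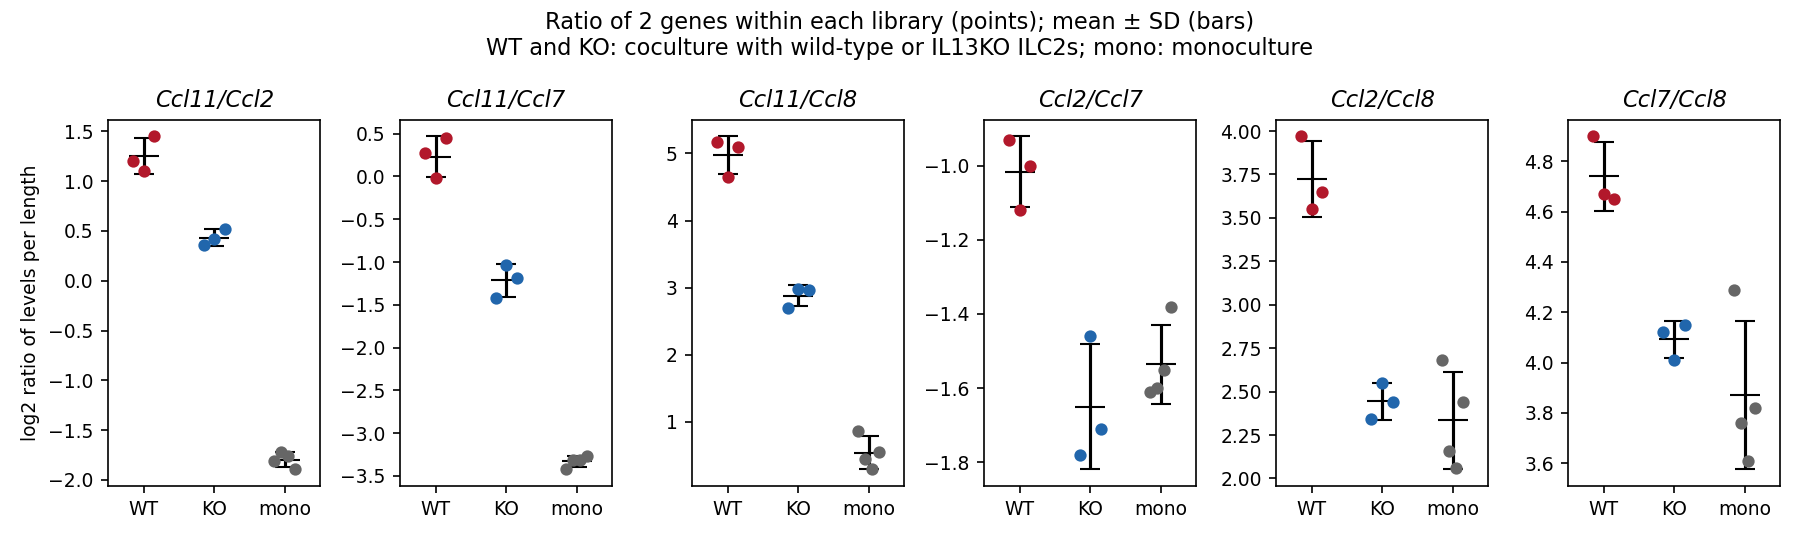
Log2 ratio of the levels per length of 2 genes within each library (points), with the mean and SD of each group (bars): WT coculture, IL13KO coculture and monoculture from left to right. The 3 ratios with Ccl11 step down across the groups, whereas those among Ccl2, Ccl7 and Ccl8 overlap between IL13KO coculture and monoculture; each panel has its own axis.

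The order of abundance per length changed with these shifts. In the WT cocultures Ccl11 was at 5488 ± 749 RPKM and Ccl7 at 4666 ± 557, and the libraries of this pair overlapped, with Ccl2 at 2293 ± 125 and Ccl8 at 176 ± 34.9 below them. In the IL13KO cocultures Ccl7 led at 1795 ± 81.3 RPKM, followed by Ccl11 at 777 ± 72.5, Ccl2 at 574 ± 41.7 and Ccl8 at 104.9 ± 2.05, with no overlap between neighbours in the order. In the monocultures the order was Ccl7 at 936 ± 180.2 RPKM, Ccl2 at 321 ± 45.5, Ccl11 at 92.5 ± 14.5 and Ccl8 at 63.4 ± 9.14, again with no overlap. The Ccl2 model counts a retained intron as exon. With the length of the longest coding transcript in its place, a choice made after seeing the data, Ccl2 stood at 803 RPKM in the IL13KO cocultures, from 758 to 869, and overlapped Ccl11 there.

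As a share of the summed RPKM of the 4 genes, Ccl11 made up 43.4 ± 3.70% in the WT cocultures, 23.9 ± 1.95% in the IL13KO cocultures and 6.56 ± 0.139% in the monocultures. Ccl7 made up 36.97% ± 3.0, 55.2 ± 2.92% and 66.1 ± 1.55%, the reverse trend. Ccl2 kept between 16.9% and 24.6% of the sum in every library. These shares use the Ccl2 model with the retained intron. With the coding length Ccl2 stood at 3210, 803 and 449 RPKM in WT coculture, IL13KO coculture and monoculture, so its share would be larger and the others smaller. The level of the per-length ratios with Ccl2 depends on this length too, but their differences between groups do not. Together the 4 genes took 1.24 ± 0.108% of the scaled library in the WT cocultures, 0.299 ± 0.00659% in the IL13KO cocultures and 0.125 ± 0.0211% in the monocultures.

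**Figure D4:**
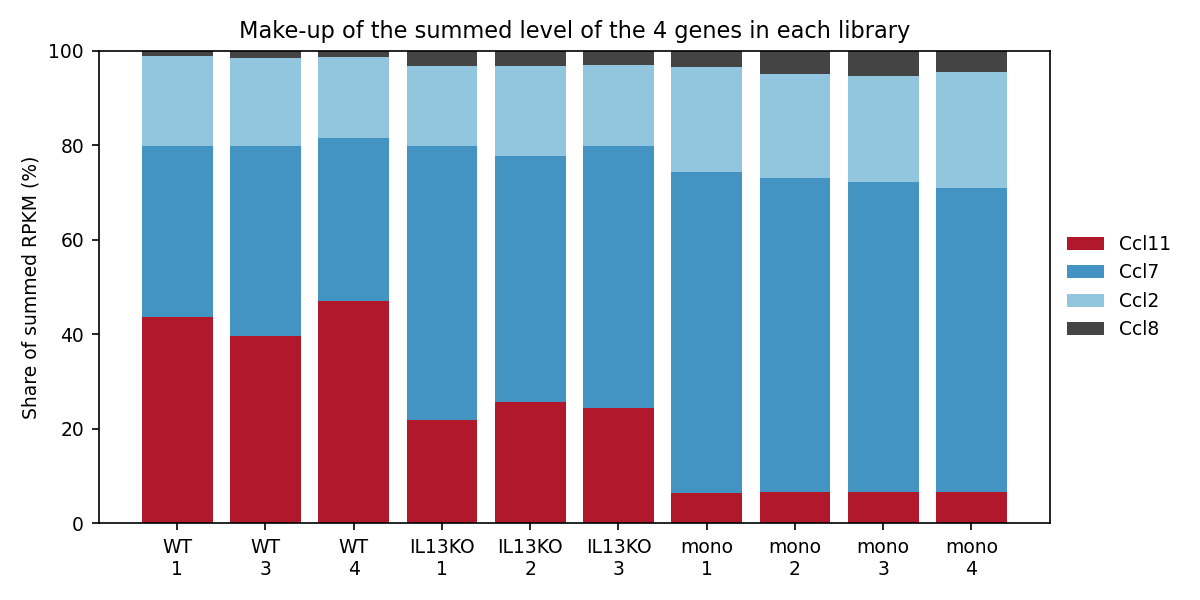
Share of Ccl11, Ccl7, Ccl2 and Ccl8 in their summed RPKM, in percent, for each library (bars: 3 WT cocultures, 3 IL13KO cocultures, 4 monocultures). The share of Ccl11 runs from 39.7% to 47.0% with wild-type ILC2s, from 21.7% to 25.5% with IL13KO ILC2s and from 6.35% to 6.65% alone.

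Of 6 listed CC chemokine genes elsewhere on chromosome 11, 2 were abundant enough to test. Ccl9, a macrophage attractant gene, was at 105 ± 1.57 CPM with wild-type ILC2s, 102 ± 8.19 with IL13KO ILC2s and 68.0 ± 18.2 in the monocultures. It rose in both cocultures against monoculture (0.63 ± 0.16 and 0.59 ± 0.16, edgeR adjusted p = 0.00436 and 0.00766), and was 0.04 ± 0.17 between them (edgeR adjusted p = 0.892). Ccl6 fell in the WT cocultures against monoculture by 3.32 on the log2 scale, on few reads (10, 3 and 2 against 56, 12, 38 and 15). Ccl3 had 0, 7 and 6 reads with wild-type ILC2s and 0 in each other library, and Ccl5 had 0 to 20 in a library.

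Of 10 listed chemokine genes on other chromosomes, 5 were tested between WT and IL13KO coculture, where 1 rose and 3 fell. Among all genes tested, 11.6% rose and 11.7% fell in this comparison. Ccl24, or eotaxin-2, shares the receptor CCR3 with CCL11 and was at 7.54 ± 1.30, 5.83 ± 0.442 and 7.53 ± 2.60 CPM in WT coculture, IL13KO coculture and monoculture. It was not called in any comparison (edgeR adjusted p = 0.999, 0.216 and 0.336 for WT coculture and IL13KO coculture against monoculture and for the cocultures). Ccl25 rose with wild-type against IL13KO ILC2s by 0.71 ± 0.22. Cx3cl1, which encodes the membrane-bound chemokine fractalkine, ran the other way between the cocultures. It was at 14.6 ± 6.65 CPM with wild-type ILC2s and 44.5 ± 7.65 with IL13KO ILC2s (-1.60 ± 0.35, edgeR adjusted p = 0.00525). Against monoculture, at 5.15 ± 2.57 CPM, Cx3cl1 rose in both cocultures (1.52 ± 0.35 and 3.12 ± 0.35, edgeR adjusted p = 0.00203 and 1.22e-05). Ccl19 and Ccl27a were also lower with wild-type than with IL13KO ILC2s, by 1.85 and 0.67 on the log2 scale. Against monoculture Ccl19 rose with IL13KO ILC2s (1.0 ± 0.35, edgeR adjusted p = 0.0286) and was not called with wild-type ILC2s (edgeR adjusted p = 0.0742). Ccl27a fell against monoculture in both cocultures.

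Of 14 listed receptor and scavenger genes, 9 were measured here, without Ccr2, and 4 passed the filter on low counts. Of these 4, 0 rose and 1 fell in either coculture against monoculture, and 0 was called between WT and IL13KO coculture (edgeR adjusted p from 0.405 to 0.984). Among all genes, 29.7% and 27.3% fell with wild-type and IL13KO ILC2s against monoculture, and 23.3% were called between the cocultures. Ccr3, the eotaxin receptor, had 0, 5 and 0 reads with wild-type ILC2s and 0 in each other library, and Ccr1 had 1, 3 and 11 reads with wild-type ILC2s and 0, 0 and 3 in the IL13KO cocultures. Ackr4, a scavenger of other CC chemokines, was at 4.60 ± 1.10 CPM with wild-type ILC2s, 5.81 ± 0.523 with IL13KO ILC2s and 10.8 ± 3.15 in the monocultures, and fell in both cocultures against monoculture.

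Of 6 listed protease genes whose products can cut chemokines, 0 rose and 4 fell between WT and IL13KO coculture. Among all genes tested, 11.6% rose and 11.7% fell there. Dpp4, the aminopeptidase that truncates eotaxin, was at 2.20 ± 0.485 CPM with wild-type ILC2s, 6.70 ± 2.40 with IL13KO ILC2s and 11.9 ± 4.97 in the monocultures (-1.61 ± 0.39 between the cocultures, edgeR adjusted p = 0.0105). Mmp3, or stromelysin-1, was at 116 ± 23.0 CPM with wild-type ILC2s and 1301 ± 200.5 with IL13KO ILC2s (-3.49 ± 0.20, edgeR adjusted p = 2.91e-07). Mmp13 fell by 2.77 and Fap by 1.48 on the log2 scale. Mmp2, whose product cleaves CCL7, was at 823 ± 42.8 CPM with wild-type ILC2s, 688 ± 80.3 with IL13KO ILC2s and 254.5 ± 63.5 in the monocultures. It rose in both cocultures against monoculture (1.69 ± 0.15 and 1.44 ± 0.15), and 0.26 ± 0.16 between them did not pass (edgeR adjusted p = 0.29). Mmp14 rose too in both cocultures against monoculture (1.87 ± 0.23 with wild-type, 2.40 ± 0.23 with IL13KO ILC2s). Between the cocultures Mmp14 was not called (-0.53 ± 0.24, edgeR adjusted p = 0.134).

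Of 13 tested genes of IL-4 and IL-13 signalling, 10 rose and 0 fell in the WT cocultures against monoculture, where 32.8% of all genes rose. In the IL13KO cocultures 10 rose and 0 fell against the same monocultures, where 30.1% of all genes rose. Between WT and IL13KO coculture 3 rose and 1 fell, where 11.6% of all genes rose and 11.7% fell. The median log2 fold change of the list was 2.63, 2.68 and -0.14 in these comparisons, against 0.015, 0.002 and -0.004 over all genes. Stat6 was at 136 ± 14.1, 144 ± 5.92 and 23.3 ± 10.6 CPM in WT coculture, IL13KO coculture and monoculture, and the receptor chain gene Il4ra at 597 ± 206, 834 ± 8.83 and 54.8 ± 14.3. Socs3 rose against monoculture by 3.87 ± 0.22 with wild-type and 4.08 ± 0.22 with IL13KO ILC2s, and Socs1 by 3.42 ± 0.26 and 2.68 ± 0.26. Between the cocultures neither was called (-0.21 ± 0.21 for Socs3 and 0.74 ± 0.26 for Socs1, edgeR adjusted p = 0.525 and 0.0529). The 3 that rose between the cocultures were Il13ra2, the decoy receptor gene (3.04 ± 0.22), Cish, a STAT-induced inhibitor (2.42 ± 0.19), and Il2rg (1.73 in log2). Il2rg was low, at 3.11 ± 1.015, 0.927 ± 0.312 and 0.712 ± 0.212 CPM in WT coculture, IL13KO coculture and monoculture. Whether its reads came from fibroblasts or from ILC2s was not tested. Jak1 was lower by 0.59 with wild-type than with IL13KO ILC2s. It was at 371 ± 18.9, 559 ± 24.8 and 372 ± 15.9 CPM in WT coculture, IL13KO coculture and monoculture. Against monoculture it rose with IL13KO ILC2s (0.59 ± 0.08, edgeR adjusted p = 4.49e-05) and was not called with wild-type ILC2s (edgeR adjusted p = 0.965).

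Of 13 tested genes of NF-κB signalling, 11 rose and 0 fell in the WT cocultures against monoculture, where 32.8% of all genes rose. In the IL13KO cocultures 7 rose and 0 fell against monoculture, where 30.1% of all genes rose. Between WT and IL13KO coculture 4 rose and 2 fell, where 11.6% of all genes rose and 11.7% fell. The list's medians were 0.93, 0.87 and 0.32 in the 3 comparisons. Against monoculture the subunit genes Nfkb2, Rela and Relb rose with wild-type ILC2s by 3.25 ± 0.23, 2.49 ± 0.25 and 2.21 ± 0.24 (edgeR adjusted p = 1.62e-07, 2.49e-06 and 6.16e-06). They rose with IL13KO ILC2s by 2.49 ± 0.23, 2.38 ± 0.25 and 1.81 ± 0.24 on the log2 scale (edgeR adjusted p = 3.12e-06, 7.14e-06 and 5.19e-05). Between the cocultures Nfkb2 was higher with wild-type ILC2s (0.76 ± 0.22, edgeR adjusted p = 0.0256). Rela and Relb were not called there (edgeR adjusted p = 0.784 and 0.261). The 2 that fell between the cocultures were Il1r1 (-0.38 ± 0.10) and Myd88 (-0.42 ± 0.13). Nfkb1, another subunit gene, was at 22.4 ± 2.19 CPM with wild-type ILC2s, 8.36 ± 0.934 with IL13KO ILC2s and 8.61 ± 1.02 in the monocultures, a log2 difference of 1.42 ± 0.16 between the cocultures (edgeR adjusted p = 5.74e-05). Nfkbia, which encodes the inhibitor IκBα and is itself a target, was at 132 ± 8.23, 72.1 ± 2.07 and 69.4 ± 4.95 CPM in these groups. Nfkb1 and Nfkbia were not called between IL13KO coculture and monoculture (-0.04 for Nfkb1 and 0.06 for Nfkbia on the log2 scale, edgeR adjusted p = 0.837 and 0.622).

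The genes whose profile over the 10 libraries lay nearest to each chemokine gene differed between neighbours. Nearness was the root mean square distance between log2 CPM profiles, each centred on its mean, among 9123 genes. Nearest to Ccl11 were Cish (0.35), Il13ra2 (0.44) and Aldh1a3 (0.44), a gene of retinoic acid synthesis. Nearest to Ccl2 were Tfpi2 (0.16), which encodes a protease inhibitor, Stc2 (0.16), a secreted hormone gene, and Cxcl5 (0.17), the gene of a neutrophil attractant. Klf5 (0.17), a transcription factor gene, Ttc39c (0.17) and Shcbp1 (0.18) were nearest to Ccl7. Mgarp (0.12), Timp1 (0.15), the gene of a metalloproteinase inhibitor, and Eno1 (0.15), an enolase gene with a near-identical copy that makes its counts uncertain, were nearest to Ccl8. The distance was 0.28 between Ccl2 and Ccl7 and 1.33 between Ccl2 and Ccl11. Profiles were not scaled for the size of their changes, so the ranks depend on the gene they are taken from: Ccl11 ranked 5823 in nearness to Ccl2, and Ccl2 ranked 225 in nearness to Ccl11.

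**Figure D5:**
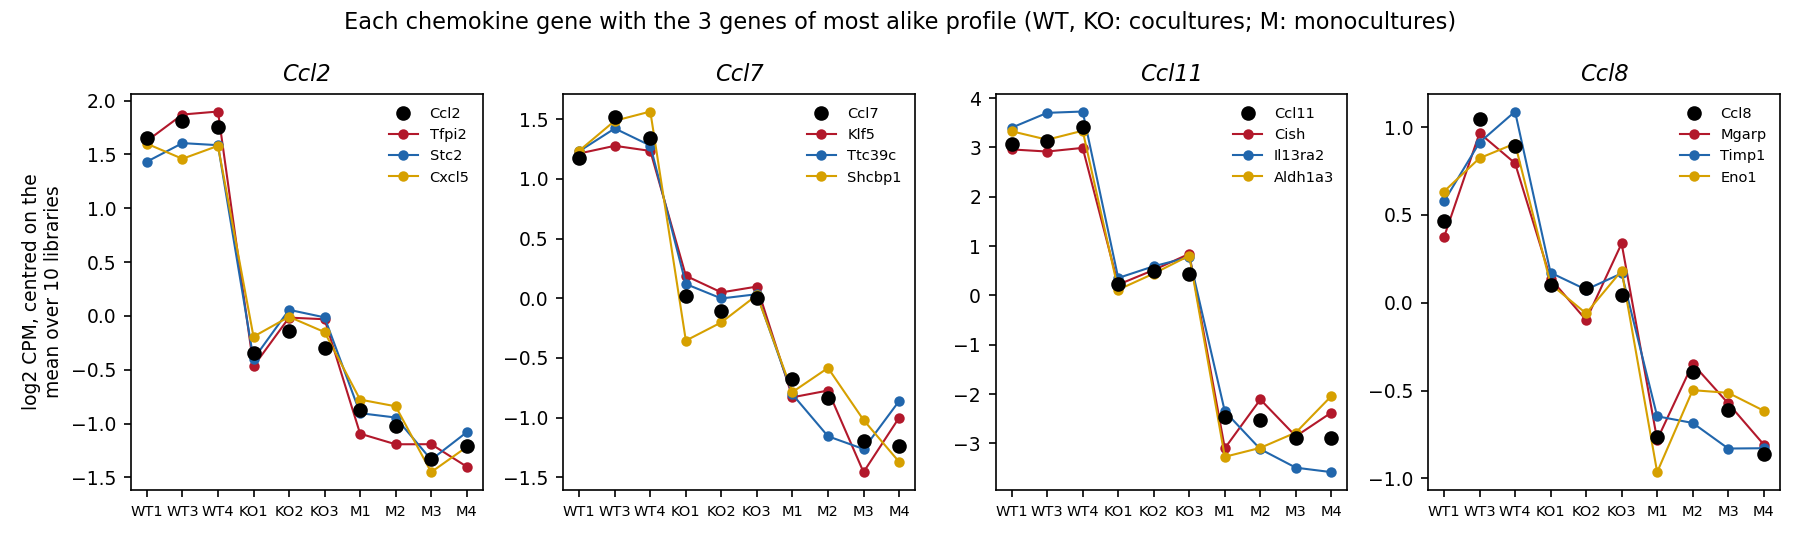
Log2 CPM of each chemokine gene (black points) and of the 3 genes with the most alike profile (lines), centred on the mean over the 10 libraries, for WT cocultures (WT), IL13KO cocultures (KO) and monocultures (M). Ccl11 spans over 6 log2 units with Cish, Il13ra2 and Aldh1a3, while Ccl8 spans under 2 with Mgarp, Timp1 and Eno1.

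Of 6 fibroblast markers tested, 0 rose and 2 fell between WT and IL13KO coculture, where 11.6% of all genes rose and 11.7% fell. These were Dcn (-2.16 ± 0.20, edgeR adjusted p = 1.21e-05) and Pdgfrb (-1.70 ± 0.27, edgeR adjusted p = 0.000605). Against monoculture 3 rose and 1 fell with wild-type ILC2s, where 32.8% of all genes rose and 29.7% fell. With IL13KO ILC2s 4 rose and 1 fell, where 30.1% rose and 27.3% fell. Marker levels of other cells moved between the groups too. The 8 leukocyte genes summed to 95.5 to 120.2 CPM in the WT cocultures, 14.2 to 22.1 in the IL13KO cocultures and 2.89 to 6.89 in the monocultures, most of it from Cd53 (104 ± 10.04, 16.4 ± 3.32 and 3.13 ± 0.760 CPM). Of the 3 tested, Cd53 rose in all comparisons (1 rose, 0 fell in each). The share of all genes that rose was 32.8%, 30.1% and 11.6% (WT and IL13KO coculture against monoculture, WT against IL13KO coculture). The 12 ILC2 genes in the table summed to 1291 to 1545, 79.4 to 84.1 and 68.0 to 86.4 CPM in the same groups. Il1rl1, which fibroblasts may also express, made up most of the WT sums, at 28232, 28200 and 21967 reads. Most of the sums in the other groups came from Rora, at 41.7 ± 5.44, 55.25 ± 3.085 and 63.7 ± 5.16 CPM in WT coculture, IL13KO coculture and monoculture. Fibroblasts grown alone held such a sum, so it does not measure ILC2s alone. Of 7 tested ILC2 genes, 4 rose and 1 fell between WT and IL13KO coculture, where 11.6% of all genes rose and 11.7% fell. The 1 that fell was Rora (-0.40 ± 0.12, edgeR adjusted p = 0.0258). Hlf was at 36.5 ± 3.82 CPM with wild-type ILC2s, 3.54 ± 0.422 with IL13KO ILC2s and 2.51 ± 1.17 in the monocultures (3.37 ± 0.27 between the cocultures, edgeR adjusted p = 2.83e-06). Gata3 was at 5.01 ± 0.693, 2.69 ± 0.947 and 1.36 ± 0.614 CPM and rose with wild-type ILC2s against monoculture by 1.85 ± 0.34 (edgeR adjusted p = 0.000366). Il7r had 0, 0 and 5 reads and Klrg1 0, 6 and 10 in the WT cocultures.

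Macrophages are another source of MCP genes. The 8 macrophage genes in the table summed to 22.4 to 24.2 CPM in the WT cocultures, 43.3 to 50.0 in the IL13KO cocultures and 68.7 to 75.1 in the monocultures. That order was set by Lyz2, at 2.85 ± 0.581, 23.8 ± 1.23 and 53.4 ± 1.97 CPM. It was the 1 gene of 4 tested that was called between WT and IL13KO coculture, where it fell. In that comparison 23.3% of all genes were called. Csf1r was at 12.9 ± 1.88, 12.2 ± 0.945 and 8.999 ± 1.73 CPM and rose with wild-type ILC2s against monoculture by 0.52 ± 0.18 (edgeR adjusted p = 0.0214). The defining Adgre1, the gene of F4/80, had 0, 0 and 4 reads with wild-type ILC2s, 0, 0 and 1 with IL13KO ILC2s and 0 in each monoculture. Endothelial genes summed to 3.13 to 3.99, 4.04 to 5.22 and 1.18 to 5.72 CPM, with 0 of 2 tested called, and the 3 eosinophil genes in the table to at most 0.377, 0.114 and 1.055 CPM. The part of such cells in the chemokine levels was not tested.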

How the data were processed

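RNA was sequenced in 10 libraries made with a low-input kit from 5 to 15 ng of RNA, as paired reads of 50 nt, per the labels. The deposited table gives counts, as whole numbers per Ensembl gene. The submitters' processing notes name the build GRCm38.p6 and, among other tools, STAR 2.7.7a and Salmon 1.6.0, and which tool counted, with which annotation and strand setting, is not given in the sources used here. A second table of normalized values was not used here. Symbols, exon lengths and coordinates came from GENCODE M21 on the same build, which matched 22647 of 22731 identifiers, and upstream sequence from RefSeq.

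Counts were filtered by filterByExpr, which kept 16344 genes, scaled by TMM and fitted in edgeR 4.0.16 (R 4.3.3) with 1 coefficient per group over all 10 libraries. P-values were adjusted by Benjamini-Hochberg over all genes tested, called below 0.05. Log2 CPM used a prior count of 2. Ratios within libraries were compared by exact permutation. Same-numbered libraries did not vary together (8 pairs, r from -0.126 to 0.028), so no block was used in the results reported. Pairs of libraries within a group differed by more than counting noise (chi-square per degree of freedom from 6.69). Alternatives were other scalings and filters, DESeq2 1.42.0, limma-voom (limma 3.58.1), fits of fewer groups, a replicate block, removal of the GC and length trend (loess, span 0.4) and leaving out each library.

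The members, gene lists and alternatives were chosen with earlier results of these data known. Genes were named by rule: the members, up to 4 genes per list with the smallest adjusted p per comparison, list genes at 0 reads, protein-coding neighbours within 500 kb, the 3 most alike profiles among genes with a group mean of at least 10 CPM (predicted genes left out), and Il13, Il5 and Ptprc. Ccl5, Ccr1, Stat6, Socs1, Myd88, Adgre1, Klrg1, Il7r and Gm17268 were named after their values were seen.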

Additional observations from a re-analysis of the deposited data

Results flagged for a closer look

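In 69 sets of 4 monoculture values, those of the chemokine genes, their ratios and the other genes named by rule, 5 held a library far from the rest by Dixon's test, where chance flags about 1 in 20. No chemokine gene of the cluster and no ratio was among them. Monoculture 3 stood high for Mmp2 (348.6 CPM against a mean of 254.5 ± 63.5), Il4ra (76.2 CPM against 54.8 ± 14.3) and Col1a1 (1682 CPM against 1070 ± 412.5). Monoculture 1 stood high for Dcn (3551 CPM against 2532 ± 681), and monoculture 4 for Lcp1 (2.88 CPM against 0.813 ± 1.39).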

How the results depend on the processing

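All 4 chemokine genes stayed called and higher in each of the 3 comparisons under every alternative run (228 of 228 values of a gene under an alternative). The largest move was that of Ccl7 in the IL13KO cocultures against monoculture, by 1.503-fold, when the GC and length trend was removed. For Ccl11, Ccl2, Ccl7 and Ccl8 in turn, that alternative gave log2 fold changes of 6.39, 3.26, 2.79 and 1.83 for WT coculture against monoculture. It gave 3.65, 1.36, 1.53 and 1.27 for IL13KO coculture against monoculture, and 2.73, 1.90, 1.27 and 0.57 between the cocultures, so the share of the rise seen with IL13KO ILC2s was larger for each of the 4 genes than in the values reported. With each library left out in turn, the log2 fold change of Ccl8 between WT and IL13KO coculture ran from 0.63 to 0.90 (highest edgeR adjusted p = 0.0187) and that of Ccl11 from 2.71 to 2.89. The number of genes called between WT and IL13KO coculture, 3810, was less stable. It was 2124 with the replicate block by column number, 5806 with only these 2 groups in the fit, and 2337 to 4814 with a library left out (2523 without WT coculture 4, 2482 without IL13KO coculture 1, 2337 without IL13KO coculture 2). The replicate block left Ccl11 at 2.86, Ccl2 at 2.06, Ccl7 at 1.45 and Ccl8 at 0.80 between the cocultures and changed no call of these genes. Upper-quartile scaling moved the median of all genes by -0.121 and -0.104 for WT and IL13KO coculture against monoculture. No ratio between chemokine genes changed direction. The depth limits statements on receptors and distant CC chemokine genes, which had few reads.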
